A study of Mus musculus with 12 samples.

Results

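Transcripts of mouse macrophages exposed to a Toll-like receptor 4 agonist together with a human defensin were compared with those of untreated macrophages, in 3 arrays of each, 6 of the 12 arrays of the series. The 6 arrays were chosen by their treatment labels, KLA & hBD3 for the first group and none for the second. Kdo2-lipid A (KLA) is the lipid A part of bacterial lipopolysaccharide with its Kdo sugars, and human beta-defensin 3 (hBD3) is a cationic antimicrobial peptide of skin and mucosa. The macrophages were derived from Balb/c bone marrow with M-CSF (20 ng/ml), then kept without it before treatment for 6 h, and RNA was hybridized to Illumina MouseWG-6 bead arrays. The other 6 arrays, of cells given KLA alone at 50 ng/ml and of cells given hBD3 alone, served to place each change beside that of either agent. The labels state no dose for the combination and give the dose of hBD3 in milligrams per ml, where the methods give micrograms. The methods describe cells from 3 mice, but the labels do not tie an array to a mouse, so the p-values below measure the spread between these arrays. In 2 of the KLA arrays, replicates 2 and 3, the title names the peptide too, and they were placed by their treatment label.

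KLA is sensed by Toll-like receptor 4 with its partner MD-2, and the receptor signals through the adaptor MyD88 towards NF-kB and MAP kinases and through TRIF towards interferon beta and interferon-stimulated genes. The early targets include cytokines and chemokines, and also the inhibitors that end the signal. hBD3 kills bacteria and also acts on cells of the host. The comparison described here asks which part of the response remained when the peptide was present, and which genes differed only when both agents were given.

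Each of the 45281 probes was read as the log2 of its quantile-normalized signal, so a difference of 1 is a doubling. A probe was called changed when its adjusted p in limma, a linear model fitted across all probes and all 12 arrays, was under 0.05. A gene was read through its brightest probe, where that probe was detected above the negative control beads (detection p under 0.01) in all 3 arrays of the combination or of the untreated cells. This left 7991 of 19057 genes. Values in the text are log2 signals of arrays 1, 2 and 3 in that order, or log2 differences with their standard error, with n = 3 arrays per group. Bulk RNA cannot tell fewer cells of a type from less RNA per cell.

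The 6 arrays differed in brightness before normalization. The combination arrays had 12543 to 14644 detected probes and raw medians of 49.8 to 57.6, and the untreated arrays had 14610 to 15629 detected probes and medians of 59.3 to 64.4. Raw means were 177 to 241 with the combination and 260 to 365 in untreated cells, so the groups did not overlap in mean signal before quantile normalization. Of 21 macrophage identity genes with a probe, 19 were detected in all 3 arrays of either group. Markers of other cells were mostly undetected: 8 of 12 neutrophil markers, 11 of 12 dendritic cell markers and 9 of 10 T and NK cell markers were detected in no combination array, and no marker of another cell type that was read was called in the comparison. The summed signal of the stromal markers was 4458 to 5777 with the combination and 5145 to 6175 in untreated cells, but reached 17273 in an hBD3 array. The part of brightness and of these markers in the results was not tested.

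Cells given KLA plus hBD3 differed from untreated cells in cytokine, chemokine, NF-kB and co-stimulatory genes, most of which rose, and in mitochondrially encoded and lysosome genes, of which some fell. Against untreated cells, 888 probes (1.96% of all probes) were called higher and 1098 (2.42%) lower, of which 212 rose and 140 fell by at least 2-fold. Without a correction 7029 probes passed p under 0.05. Among the genes read, 581 (7.27%) were higher and 647 (8.1%) lower. In KLA alone against the same untreated arrays 19.8% of the genes read were higher and 26.3% lower, and in the combination against KLA 13.9% were higher and 10.2% lower. These comparisons share arrays, so their values are given side by side and not as support for each other. The counts depended on single arrays: without combination replicate 1 the higher and lower probes numbered 485 and 493, and without combination replicate 2 they numbered 441 and 447. Leaving out untreated replicate 3 reduced the lower probes to 561. The split also depended on scaling, since centring each array on its median over all probes gave 323 higher and 5857 lower and moved the median of the genes read from -0.02 to -0.54, while centring on the probes detected everywhere gave 2143 higher and 921 lower.

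The largest rises were led by neutrophil-attracting chemokines and cytokines of the acute inflammatory response. Cxcl1, a chemokine for neutrophils, read 13.25, 13.60 and 13.07 with the combination and 7.47, 7.89 and 7.84 in untreated cells. The groups lay far apart, and the difference was 5.57 ± 0.75, a 47.6-fold rise (adjusted p = 0.0016). With KLA alone Cxcl1 read 14.44, 14.21 and 14.49, and the 95% interval of the combination minus KLA was -2.71 to 0.57. The hBD3 arrays of Cxcl1, which enter the same estimate of the spread, read 11.70, 8.85 and 7.42, with array 1 high, as it was for Cxcl2, Tnf, Il1a and Il1b.

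Cxcl2, a related chemokine, read 12.26, 12.53 and 11.90 against 6.93, 7.55 and 6.77 untreated. All combination arrays were above all untreated ones, and the rise of 5.15 ± 0.73 (adjusted p = 0.0022) stood beside 7.11 with KLA alone. A second detected probe of Cxcl2 read 1.68 and was also called. Cxcl10, a chemokine for activated T cells that interferons induce, read 12.74, 12.13 and 11.84 against 10.11, 9.05 and 7.97. Its rise of 3.19 ± 0.52 (adjusted p = 0.0046) stood beside 3.55 with KLA, and the arrays of the combination and of KLA overlapped. Ccl4 rose by 2.89 ± 0.45 and Ccl3, likewise a chemokine for monocytes and lymphocytes, by 2.65 ± 0.41, beside 4.03 and 3.81 with KLA. Of 12 chemokines read, 8 were higher and none lower, at a median of 1.14 beside 3.09 with KLA. Under centring on all probes 5 chemokines were higher and none lower. Ccl5, the chemokine RANTES, did not pass the test at 0.71 ± 0.32 (adjusted p = 0.32). Its combination arrays read 11.79, 11.48 and 10.38, so that array 3 lay within the untreated range of 10.29 to 10.77, while KLA alone gave 12.90, 12.78 and 12.95.

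Promoters of these genes are shown because they carry letters of the kB motif that NF-kB binds, in front of the genes with the largest rises. The 250 bases before the annotated start (RefSeq, GRCm38.p6) were searched on both strands for GGGNNNTTCC, and matches are in capitals. Of the 27025 genes with a promoter, 5.31% held the motif, and of the genes read with a promoter 6.03%. It was held by 3 of the 10 largest rises with a promoter (Cxcl1, Cxcl2 and Cxcl10) and none of the 10 largest falls with one. Elsewhere among the named genes it lay before genes called higher (Gbp5, Nfkbia, Tlr2 and Tnfaip3) and lower (Hspd1, Hspe1, Lipa, Pgk1 and Sdhb). It also lay before Csf3r, Ifnb1, Il6, Txn1 and Vim, which were not called. Cxcl1 held 3 matches, which start 89, 71 and 70 bases before the gene's start, the last pair overlapping, and Cxcl2 held 3, at 97, 96 and 78, of which the first pair overlap. Cxcl10 held 2, at 159 and 104. A match describes the letters and not a site in use.
Cxcl1, chr5:90890995-90891244, + strand: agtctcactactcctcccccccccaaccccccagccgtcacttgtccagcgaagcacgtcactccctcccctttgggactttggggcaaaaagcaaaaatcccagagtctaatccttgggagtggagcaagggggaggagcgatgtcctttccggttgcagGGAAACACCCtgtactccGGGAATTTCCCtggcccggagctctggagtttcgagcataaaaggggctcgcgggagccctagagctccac
Cxcl2, chr5:90903649-90903898, + strand: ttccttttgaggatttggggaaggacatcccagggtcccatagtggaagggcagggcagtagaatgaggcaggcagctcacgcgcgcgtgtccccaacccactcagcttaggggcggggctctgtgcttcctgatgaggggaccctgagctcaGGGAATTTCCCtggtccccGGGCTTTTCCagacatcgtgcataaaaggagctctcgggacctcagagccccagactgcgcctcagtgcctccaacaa
Cxcl10, chr5:92348890-92349139, - strand: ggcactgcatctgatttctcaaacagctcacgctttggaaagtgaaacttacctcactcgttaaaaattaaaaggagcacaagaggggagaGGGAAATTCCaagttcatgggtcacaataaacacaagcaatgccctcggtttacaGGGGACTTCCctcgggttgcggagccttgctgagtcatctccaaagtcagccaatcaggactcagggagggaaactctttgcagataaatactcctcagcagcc

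Among the cytokines, Tnf, the gene of tumor necrosis factor, read 13.24, 13.38 and 13.33 with the combination and 9.43, 9.46 and 9.25 untreated. The combination arrays lay close together, and the rise was 3.94 ± 0.50 (15.3-fold, adjusted p = 0.0011), beside 5.04 with KLA alone. Il1b, a cytokine released after inflammasome cleavage, read 13.29, 13.32 and 13.36 against 9.29, 9.65 and 9.60. It rose by 3.81 ± 0.48 (adjusted p = 0.001), and the difference from KLA was -0.68 with an interval of -1.72 to 0.37. Il1a read 9.99, 9.98 and 9.67, and was not detected in untreated arrays. The rise of Il1a (adjusted p = 0.0072) was therefore at least 14-fold, and with KLA alone at least 153-fold.

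A subunit of interleukin 12 and a relative of it rose with the combination and lay below their level with KLA. Il12a, the p35 subunit, read 8.52, 8.81 and 8.56 with the combination, 12.74, 12.29 and 12.97 with KLA and was not detected untreated. Its rise was at least 5.87-fold with the combination and at least 96.5-fold with KLA, and the combination minus KLA was -4.04 (interval -4.90 to -3.18, adjusted p = 6.3e-05). Il27, which encodes a subunit of a cytokine of the same family, read 8.47, 8.64 and 7.80, undetected in untreated arrays and at 11.75, 10.98 and 11.39 with KLA. The combination rise of Il27 was at least 4.68-fold (adjusted p = 0.00026), and the combination minus KLA was -3.07 (adjusted p = 1.5e-05). Il6 barely left background: it read 6.40, 6.22 and 6.38, was detected in 2 of the 3 combination arrays and in no untreated array, and its difference, at least 1.20-fold, did not pass the test (adjusted p = 0.33), where KLA gave 9.33, 8.60 and 9.79. Ifnb1, interferon beta, was detected in all combination arrays at 6.77, 6.39 and 6.27 and in no untreated one, and missed the threshold (at least 1.32-fold, adjusted p = 0.083). Of 14 inflammatory cytokines read, 9 were higher and none lower, at a median of 1.60 beside 2.68 with KLA, where 12 were higher. Under centring on all probes 7 cytokines were higher with the combination and none lower.

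**Figure D1:**
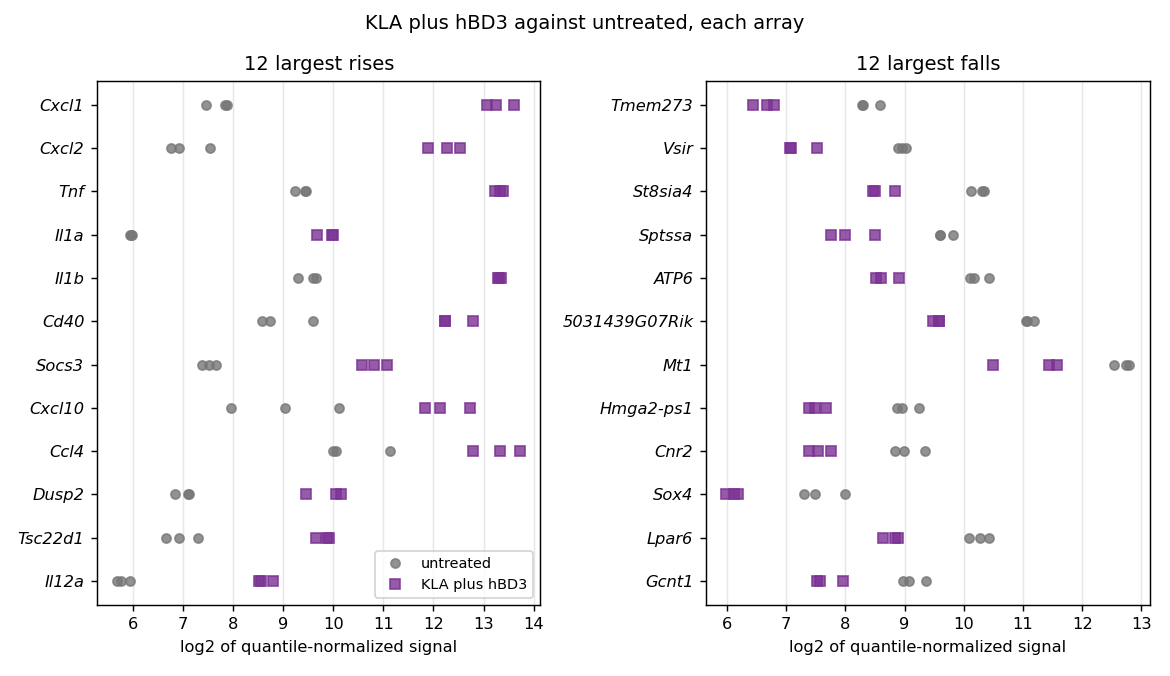
Log2 of quantile-normalized signal (x axes) of the 12 genes with the largest called rises (left) and falls (right) in macrophages given KLA plus hBD3 (squares) against untreated ones (circles), 1 point per array. For each of the 24 genes the 3 arrays of the combination lie on the same side of all 3 untreated arrays. The genes were chosen for large called changes, and the groups were separate in this way for 21.7% of all probes. Tsc22d1, among the rises at 2.85, lost its call when any 1 combination or untreated array was left out (adjusted p up to 0.13).

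The receptor chain was read from ligand recognition to the nucleus. Tlr4 itself fell, from 10.16, 10.16 and 10.21 untreated to 9.24, 9.08 and 9.16 (-1.02 ± 0.16, adjusted p = 0.0035), and stood at 8.46, 8.57 and 8.92 with KLA. A second detected probe of Tlr4 read -0.53 without a call. Myd88, the adaptor, read 12.47, 12.86 and 12.70 against 11.97, 11.65 and 11.82. Its rise of 0.86 ± 0.11 (adjusted p = 0.00099) stood beside 0.88 with KLA, with an interval of the difference of -0.26 to 0.22, although a second detected probe of Myd88 read -0.07. Irak2, a kinase-like protein of the MyD88 complex, read 11.01, 11.06 and 10.97 against 9.54, 9.57 and 9.68 and rose by 1.42 ± 0.09 (adjusted p = 2.4e-05). With KLA it rose further, by 2.10. Of 25 genes of the receptor complex, adaptors and kinases, 8 were higher and 2 lower, beside 15 and 4 with KLA, but 1 and 8 under centring on all probes.

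Of 18 NF-kB subunits and inhibitors, 11 were higher and none lower, at a median of 0.88 beside 1.38 with KLA. Under centring on all probes 4 were higher and none lower, and Rela and Tnfaip3 lost their calls (limma adjusted p = 0.23 and 0.28). Rela, the p65 subunit, read 11.62, 11.71 and 11.64 against 10.66, 10.92 and 10.84 and rose by 0.85 ± 0.08 (adjusted p = 0.00017). The difference from KLA had an interval of -0.26 to 0.08. Nfkbia, the inhibitor IkB alpha, rose by 1.76 ± 0.16 (2.21 with KLA) on 1 probe while a second detected probe read 0.43 without a call, and Nfkbiz, a nuclear IkB protein needed for some secondary targets, by 2.05 ± 0.20 (3.56 with KLA). Tnfaip3, the deubiquitinase A20 that restrains NF-kB, rose by 1.15 ± 0.13 beside 2.42.

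Other brakes rose as well. Socs3, an inhibitor of cytokine receptor signalling through STAT3, read 11.07, 10.82 and 10.57 against 7.37, 7.53 and 7.65, a rise of 3.30 ± 0.19 (adjusted p = 1.1e-05) beside 5.29 with KLA. Dusp2, a phosphatase of MAP kinases, read 10.16, 10.07 and 9.46 against 7.11, 7.11 and 6.85 and rose by 2.87 ± 0.28. Both remained below KLA, with differences of -1.99 (adjusted p = 5.6e-05) and -2.25 (adjusted p = 0.00034). Among 18 brakes read, 9 were higher and 2 lower, but 6 and 3 under centring on all probes. Of 14 immediate early and AP-1 factors 3 were higher and 2 lower, and 1 of each when combination replicate 1 or 2 or untreated replicate 1 or 2 was left out. Centring on all probes gave 1 higher and 5 lower among these factors. Atf3, a transcription factor known to dampen cytokine genes, fell with the combination by 0.77 (± 0.10, adjusted p = 0.0017), and its change with KLA was -0.75.

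At the cell surface, Cd40, a co-stimulatory receptor, read 12.79, 12.22 and 12.22 against 9.60, 8.74 and 8.58. It rose by 3.44 ± 0.53 (10.8-fold, adjusted p = 0.0035), and its difference from KLA was -2.16 (adjusted p = 0.027). The 4 detected probes of Cd40 read 0.76 to 3.44, and all were called. Cd69, an activation marker, rose by 2.69 ± 0.37, Cd274, the checkpoint ligand PD-L1, by 1.79 ± 0.15, Icam1, an adhesion molecule, by 1.68 ± 0.14 and Fas, a death receptor, by 1.58 ± 0.13. The difference from KLA had an interval of -0.67 to -0.07 for Icam1 (adjusted p = 0.18) and of -0.46 to 0.09 for Fas. Cd86, a co-stimulatory ligand, rose by 0.84 ± 0.17 (adjusted p = 0.018) beside 1.86 with KLA, and lost its call when combination replicate 1 or 2 or untreated replicate 1 or 3 was left out, at adjusted p of 0.076, 0.087, 0.065 and 0.051. Of 13 co-stimulatory and checkpoint molecules 10 were higher and none lower, but 6 were higher and 1 lower under centring on all probes. Among 11 inhibitory myeloid receptors 2 were higher and 3 lower, but 1 was lower when combination replicate 1 or 2 or untreated replicate 1 or 3 was left out. Pilra, an inhibitory receptor of the paired immunoglobulin-like type, rose by 2.35 ± 0.14 from 6.99, 7.47 and 7.30 to 9.53, 9.74 and 9.54 (2 of its 3 detected probes were called, at 0.54 to 2.35), whereas Vsir, the checkpoint protein VISTA, fell by 1.73 (± 0.17, adjusted p = 0.00023) from 8.89, 8.95 and 9.02 to 7.06, 7.08 and 7.53.

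Among 21 effector enzymes and secreted proteins 14 were higher and 1 lower, at a median of 1.16 beside 2.92 with KLA. Under centring on all probes 7 effector genes were higher and 1 lower. Gpr84, a receptor for medium-chain fatty acids, read 12.47, 12.58 and 12.71 against 10.65, 10.49 and 10.58 and rose by 2.01 ± 0.10 (adjusted p = 1.1e-05). With hBD3 alone Gpr84 fell, by 1.18 (adjusted p = 0.0054), to 9.64, 9.24 and 9.30. Mmp14, a membrane-bound matrix metalloproteinase, read 12.87, 12.97 and 13.19 against 11.52, 11.71 and 11.76. Its rise of 1.34 ± 0.10 stood beside 1.49 with KLA (interval of the difference -0.36 to 0.06). Of 38 interferon-stimulated genes 18 were higher and none lower, at a median of 0.84 beside 1.20 with KLA, where 29 were higher. Without combination replicate 1 or 2 this count fell to 8, without untreated replicate 2 or 3 to 11 or 10, and under centring on all probes to 1. Irf1, a transcription factor of the interferon response, read 13.02, 12.75 and 12.82 against 11.85, 11.55 and 11.44. Irf1 rose by 1.25 ± 0.13 (1.55 with KLA) and Irgm2, an immunity-related GTPase, by 1.50 ± 0.19 (1.71 with KLA). Of 5 detected probes of Irf1, at 1.14 to 1.71, 2 were called. Gbp5, a guanylate-binding protein, rose by 1.66 ± 0.23, less than with KLA at 3.58 (adjusted p of the difference = 0.00023).

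The promoter of Irgm2 is given because it carries the letters of an interferon-stimulated response element, GAAA, any 2 bases and GAAA again on either strand, here in capitals, starting 64 bases before the start. Of all promoters 3.46% held these letters, and of the genes read with a promoter 3.61%. Cxcl10 held them too, 213 bases before its start. Elsewhere among the named genes they lay before Fosl2, Gbp2, Gbp5, Gbp7, Myd88 and Pilra, which were called higher, and before H2bc6, H3c10 and Rps19, which were not called. These matches too describe letters and not a site in use.
Irgm2, chr11:58214727-58214976, + strand: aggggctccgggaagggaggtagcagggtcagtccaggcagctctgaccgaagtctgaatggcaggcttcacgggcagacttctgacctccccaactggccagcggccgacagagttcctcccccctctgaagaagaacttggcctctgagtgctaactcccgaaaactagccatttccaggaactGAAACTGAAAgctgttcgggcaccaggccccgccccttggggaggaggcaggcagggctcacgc

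**Figure D2:**
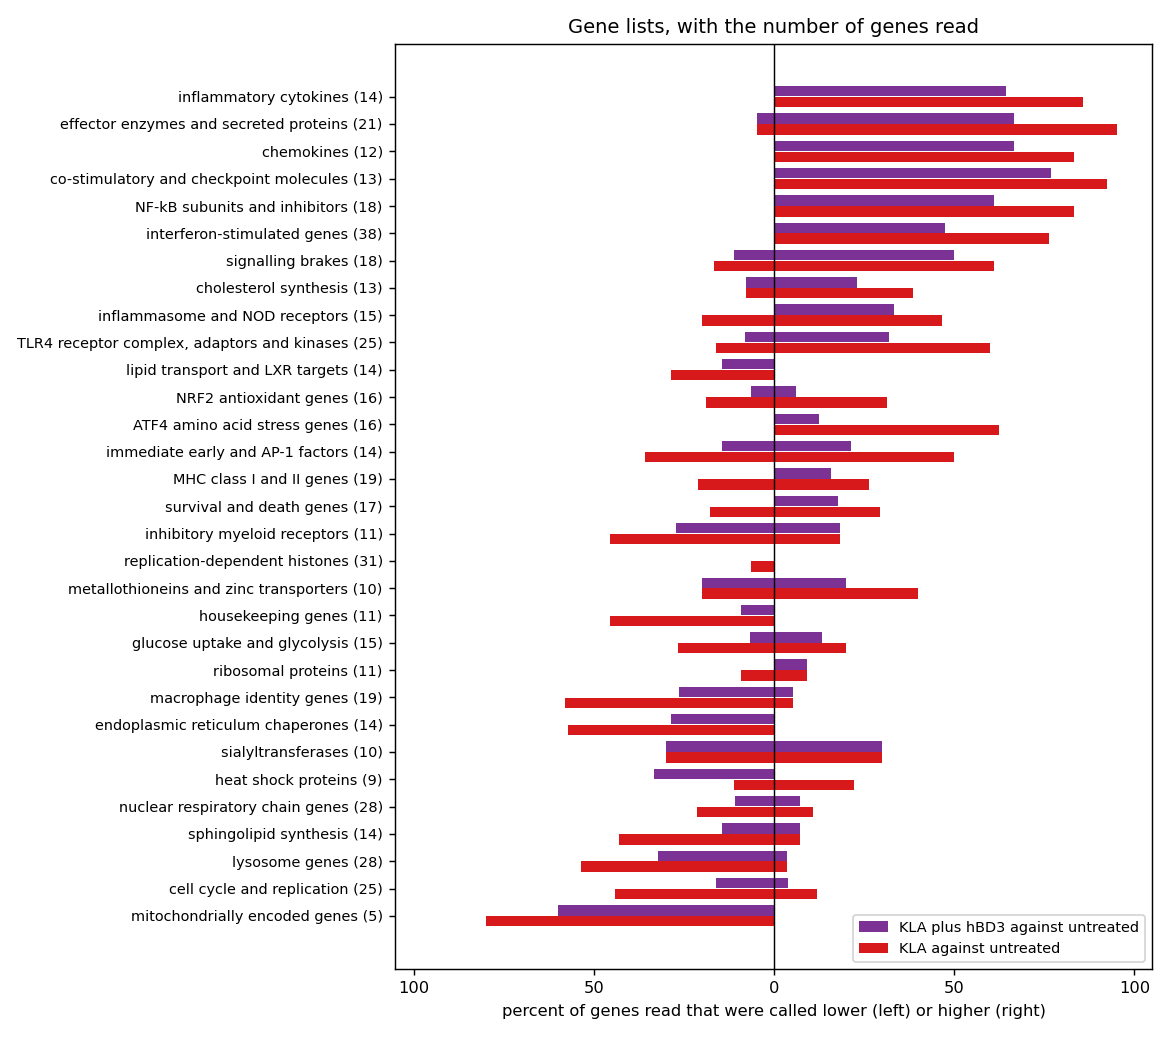
Percent of the genes read in each list (number in parentheses) that were called lower (left) or higher (right) at adjusted p under 0.05, for KLA plus hBD3 and for KLA, each against the same untreated arrays. Cytokines, chemokines, effectors, co-stimulatory molecules and NF-kB genes have the largest shares of rises with the combination, and 3 of the 5 mitochondrially encoded genes were lower.

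Some genes stood about as far from untreated with the combination as with KLA. Named by the rule of a rise of at least 1 and the smallest difference between the combination and KLA, these were Spred1, Ipo13, Enpp4, Fdps, B3gnt5, Mthfd2, Gbp7 and Clec5a. The closeness to KLA selected them and is given as a description. Spred1, an inhibitor of Ras signalling, read 10.88, 10.90 and 10.80 with the combination, 10.79, 10.81 and 11.03 with KLA and 9.97, 9.49 and 10.07 untreated. Mthfd2, an enzyme of mitochondrial folate metabolism, read 11.49, 11.46 and 11.97 with the combination, 11.61, 11.86 and 11.70 with KLA and 10.27, 10.45 and 10.54 untreated. Both treated groups were above all untreated arrays and overlapped each other. Fdps, a farnesyl diphosphate synthase of the cholesterol pathway, rose by 1.00 ± 0.15 beside 0.96, and a second detected probe read 0.25. B3gnt5, a glycolipid glycosyltransferase, rose by 1.09 ± 0.12 beside 1.02. The call of Gbp7 was lost without combination replicate 2 or untreated replicate 3 (adjusted p up to 0.065), and that of Clec5a, a myeloid lectin, when any 1 combination array or untreated replicate 2 or 3 was left out (up to 0.14). The 4 detected probes of Clec5a read 0.22 to 1.55, of which 2 were called.

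The matching falls, of at least 0.5, were those of St6galnac4, Zfp148, Chmp1b, 9130019O22Rik, Flcn, Tmem273, Chchd10 and Anpep. Tmem273, which also had the largest fall of all, read 6.68, 6.44 and 6.80 with the combination, 6.49, 6.42 and 6.97 with KLA and 8.30, 8.29 and 8.58 untreated. The combination arrays lay among the KLA arrays, at -1.75 ± 0.15 against untreated (adjusted p = 0.00012). The 3 detected probes of Tmem273 read -1.75 to -0.37, of which 2 were called. Other detected probes of St6galnac4 and Zfp148 read up to -0.19 and -0.11 without a call. Chchd10, a mitochondrial protein, fell by 1.32 (± 0.19) beside -1.30 with KLA, from 9.89, 10.16 and 10.03 to 8.94, 8.78 and 8.40. Anpep, aminopeptidase N, read 12.31, 12.37 and 12.58, and the hBD3 arrays at 12.60, 12.49 and 12.62 were also below the untreated range of 13.03 to 13.12, although hBD3 alone did not pass the test (-0.51, adjusted p = 0.18). The call of Chmp1b was lost when any 1 combination array or untreated replicate 1 or 2 was left out (adjusted p up to 0.10), that of Flcn without combination replicate 1 or 2 or untreated replicate 1 or 3 (up to 0.085) and that of 9130019O22Rik without combination replicate 1 or 2 (up to 0.057).

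Transcripts encoded by the mitochondrial genome included falls with the combination as with KLA. Of 5 read, 3 were called lower with the combination and 4 with KLA, at medians of -0.85 and -0.90. ATP6, a subunit of ATP synthase, read 8.51, 8.61 and 8.91 with the combination and 10.17, 10.43 and 10.11 untreated. The fall of 1.56 (± 0.22, adjusted p = 0.0024) stood beside 8.56, 8.40 and 9.38 with KLA. COX2, a subunit of cytochrome c oxidase, fell by 1.07 (± 0.18) and ND1, a subunit of complex I, by 0.85 (± 0.13), with intervals of the difference from KLA of -0.45 to 0.35 and -0.24 to 0.34. CYTB missed the threshold at -0.37 ± 0.10 (adjusted p = 0.064). Of 28 respiratory chain genes of the nucleus 2 were higher and 3 lower, shares near those of all genes read, and centring on all probes gave 17 lower and none higher. Atp5a1, the alpha subunit of ATP synthase, read 6.72, 6.67 and 6.91 against 7.97, 8.13 and 7.88, while its second detected probe read -0.15.

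Of 19 macrophage identity genes 5 were lower and 1 higher with the combination, beside 11 and 1 with KLA, and 8 were higher in the combination than in KLA. The 5 lower genes became 1 or 2 when combination replicate 1 or 2 or untreated replicate 3 was left out, 3 without untreated replicate 1, and 10 under centring on all probes, where none was higher. Cx3cr1, the fractalkine receptor, read 11.11, 10.68 and 11.13 untreated, 10.37, 9.78 and 10.30 with the combination and 6.74, 6.79 and 6.68 with KLA. The combination lay 3.41 above KLA (interval 3.05 to 3.78, adjusted p = 7.3e-07), and its fall of 0.83 (± 0.17) from untreated was called at adjusted p = 0.016 but not without combination replicate 2 or untreated replicate 1 or 3 (0.061, 0.061 and 0.069). Csf1r, the M-CSF receptor, fell by 0.89 (± 0.13, adjusted p = 0.0034) from 12.68, 12.71 and 12.72 to 11.58, 11.76 and 12.11, beside 10.64, 11.05 and 11.09 with KLA. Its second detected probe read -0.15. Mpeg1, a pore-forming protein of phagocytes, fell by 1.15 (± 0.21, adjusted p = 0.011) beside -0.98 with KLA, with an interval of the difference of -0.64 to 0.30, and lost its call without combination replicate 1 (0.056) or 2 (0.055). A second detected probe of Mpeg1 read -0.14. Pparg, a nuclear receptor of lipid metabolism, read 8.33, 8.38 and 8.41 against 8.89, 9.38 and 9.13 untreated and 6.63, 7.20 and 7.19 with KLA, and its fall of 0.76 (± 0.15, adjusted p = 0.014) was not called without combination replicate 1 or 2 or untreated replicate 2 (up to 0.064).

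Of 10 sialyltransferases, which cap glycans with sialic acid, 3 were higher and 3 lower, beside 7.27% and 8.1% of all genes read. Centring on all probes gave 1 higher and 5 lower, and without combination replicate 1 the counts were 2 and 3. St6gal1 read 10.80, 10.26 and 10.73 untreated, 9.12, 9.06 and 9.36 with the combination and 6.42, 6.71 and 6.85 with KLA. It fell by 1.42 (± 0.14, adjusted p = 0.00027), and the 3 groups were wholly separate. St8sia4, which adds polysialic acid, fell by 1.66 (± 0.13, adjusted p = 5.6e-05) beside -2.19 with KLA. St3gal3 rose by 1.52 ± 0.15 beside 3.07, and its second detected probe read 0.77 without a call. Sptssa, a small subunit of the enzyme that starts sphingolipid synthesis, read 7.99, 7.76 and 8.50 against 9.59, 9.82 and 9.60 and fell by 1.59 (± 0.19). Gcnt1, which branches O-glycans, fell by 1.45 (± 0.17) and Lpar6, a receptor for lysophosphatidic acid, by 1.47 (± 0.17), where KLA gave -2.85 and -2.69. Cnr2, the peripheral cannabinoid receptor, read 8.84, 9.35 and 8.99 untreated and 7.38, 7.53 and 7.75 with the combination, and was not detected with KLA.

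Of 28 lysosome genes 9 were lower and 1 higher, beside 15 and 1 with KLA, at medians of -0.28 and -0.70. The 9 lower genes became 4 without combination replicate 2 or untreated replicate 3 and 5 without untreated replicate 2, and 18 under centring on all probes. Atp6v1a, a subunit of the proton pump, fell by 1.29 (± 0.13, adjusted p = 0.00029), and Npc2, a cholesterol carrier of the lysosome, by 1.24 (± 0.18), with an interval of the difference from KLA of -0.49 to 0.30. Lipa, the lysosomal acid lipase, fell by 0.81 (± 0.10) beside -1.58. Mt1, a metallothionein that binds zinc and copper, read 11.57, 11.44 and 10.50 against 12.80, 12.54 and 12.74, with array 3 the lowest. It fell by 1.52 (± 0.23, adjusted p = 0.0032) and its KLA arrays, 11.70, 11.39 and 11.89, overlapped those of the combination. Cdkn1a, the cell cycle inhibitor p21, rose by 2.17 ± 0.26 beside 3.03, and 4 of 25 cell cycle and replication genes were lower, but 1 without combination replicate 2 or untreated replicate 3, 2 without combination replicate 1 or 3, and 12 under centring on all probes. None of 31 histone genes was called by limma, although 8 passed an unadjusted p under 0.05. Without untreated replicate 2, 4 histone genes were higher, without combination replicate 3, 2 were higher, and without untreated replicate 3, 1 was lower. Centring on detected probes gave 4 higher and 1 lower and centring on all probes 8 lower, and near-identical histone genes may share probe signal. Of 11 housekeeping genes 1 was lower, Pgk1, a call lost when any 1 combination array was left out (adjusted p up to 0.088). Of 11 ribosomal protein genes 1 was higher, Rps6 (0.43), which read -0.07 when arrays were centred on all probes and lost its call without combination replicate 2 or untreated replicate 1 or 3 (up to 0.075).

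Genes of inflammasomes and NOD receptors included 5 rises and no fall among 15 read, with 2 rises when combination replicate 2 was left out and 3 when combination replicate 1 or untreated replicate 2 or 3 was. Centring on all probes gave 1 rise and 2 falls. Nod2, a sensor of bacterial peptidoglycan fragments, read 8.17, 8.36 and 7.69 against 6.79, 6.38 and 6.31 and rose by 1.58 ± 0.18 (adjusted p = 0.00056). Casp1, the protease that cleaves interleukin 1 beta, rose by 0.76 ± 0.09 beside 0.74 with KLA, with an interval of the difference of -0.17 to 0.22. Among 17 survival and death genes 3 rose and none fell, while centring on all probes gave 3 lower and none higher. Traf1, an adaptor of TNF receptors, rose by 1.37 ± 0.13 beside 2.63, and Bcl2a1b and Bcl2a1d, near-identical copies of a survival gene whose signals may be shared, by 1.25 ± 0.18 and 1.27 ± 0.19. Of 19 MHC genes 3 were higher and none lower, among them Tap2, a peptide transporter (0.93 ± 0.16, adjusted p = 0.008). Only 1 MHC gene was higher without combination replicate 1 or 2, and centring on all probes gave 3 lower MHC genes and none higher.

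Slc2a1, the glucose transporter GLUT1, read 10.98, 11.17 and 10.99 against 9.77, 10.37 and 10.11 and rose by 0.96 ± 0.13, but of 15 genes of glucose uptake and glycolysis 2 were higher and 1 lower. This count and those of the NRF2, ATF4 and sphingolipid genes are of 1 or 2 genes in each direction and are no result about these lists beside the 7.27% and 8.1% of all genes read. Slc7a11, the cystine transporter, rose by 1.22 ± 0.13 beside 3.08 with KLA (its 3 detected probes read 0.27 to 1.45, of which 2 were called), and Gstm1, a glutathione transferase, fell by 0.83 (± 0.09) beside -1.48. They were the 2 genes called of 16 NRF2 antioxidant genes. Of 16 ATF4 target genes of amino acid stress 2 were higher, where 10 were higher with KLA. Of 14 chaperones and factors of the endoplasmic reticulum 4 were lower and none higher, but 1 was lower when combination replicate 1 or 2 or untreated replicate 1 was left out, and 2 were lower when untreated replicate 2 or 3 was or under centring on detected probes. Without untreated replicate 2 and under centring on detected probes 1 was higher, and under centring on all probes 9 were lower. Dnajb9, a cofactor of the chaperone BiP, fell by 0.99 (± 0.18, adjusted p = 0.01) from 8.45, 8.67 and 8.84 to 7.31, 7.68 and 8.01. Cers6, a ceramide synthase, rose by 1.32 ± 0.12 beside 2.81, while 2 of 14 sphingolipid genes were lower. Of 13 cholesterol synthesis genes 3 were higher and 1 lower, and of 14 genes of lipid transport and LXR targets 2 were lower. Without combination replicate 1, 1 cholesterol gene was higher and none lower, and centring on all probes gave 1 lower and none higher. Of the lipid transport genes 1 was lower without combination replicate 1, and 4 were under centring on all probes. These counts too are no result about the lists beside the shares of all genes read.

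**Figure D3:**
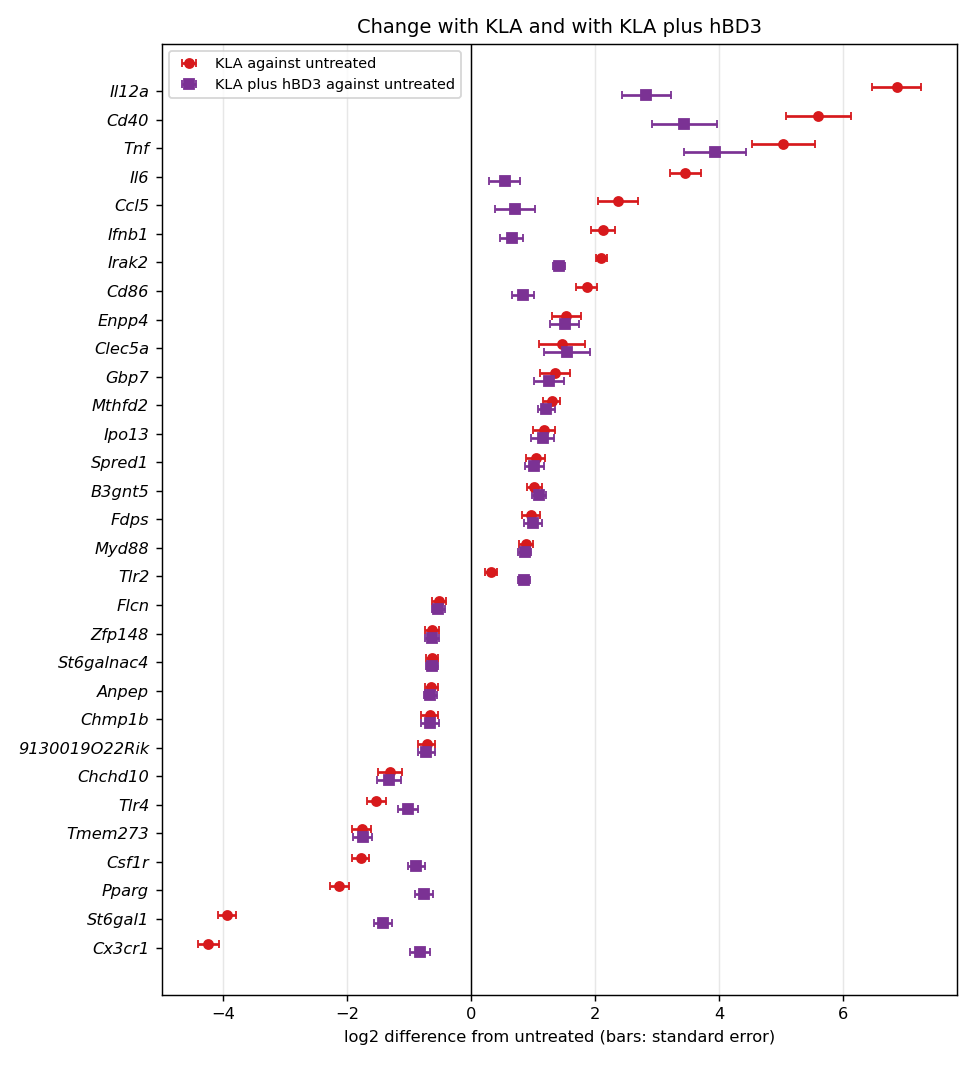
Log2 difference from untreated (x axis, bars are standard errors, 3 arrays per group) with KLA (circles) and with KLA plus hBD3 (squares) for the genes the study names, the rises and falls closest to KLA, and Cx3cr1, St6gal1, Csf1r, Pparg and Tlr4, which were added after their values were seen. The 2 changes coincide for the genes chosen for it and for Myd88, and lie apart for Il12a, Il6, Cx3cr1 and St6gal1.

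A probe was taken as changed with the combination only when the combination was called against untreated, against KLA and against hBD3, each in the same direction. This held for 18 probes upward (0.0398% of all probes) and 18 downward (0.0398%). They name 16 genes in each direction, of which 12 upward and 13 downward were read. The rule asks for a level beyond that of either agent and not for the absence of a change with KLA: 2 of the 18 higher probes were also higher with KLA and 3 were lower with it. hBD3 alone called 2 probes in all, with 3309 at an unadjusted p under 0.05. The values that follow chose these genes and are a description.

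Hp, haptoglobin, a hemoglobin-binding acute phase protein, was the clearest of the rises. It read 10.01, 10.04 and 10.43 with the combination and 9.26, 9.04 and 9.52 untreated, while the KLA arrays at 8.26, 8.51 and 8.31 and the hBD3 arrays at 8.92, 8.77 and 8.91 were lower than both. The combination was thus 0.88 ± 0.14 above untreated, 1.80 above KLA and 1.30 above hBD3. The 3 detected probes of Hp read 0.88 to 1.18, of which 1 was called.

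Tlr2, the receptor for bacterial lipoproteins, read 13.34, 13.57 and 13.67 with the combination against 12.78, 12.61 and 12.63 untreated. KLA alone gave 12.95, 12.97 and 13.07, slightly above untreated (0.32, adjusted p = 0.048), and hBD3 alone 12.13, 12.27 and 11.99. All combination arrays were above every other array. Il13ra1, a receptor chain for interleukins 4 and 13, read 8.70, 8.51 and 8.63 against 8.03, 8.0 and 8.01, with KLA at 8.27, 8.12 and 8.0 and hBD3 at 7.82, 7.83 and 7.78. Its combination level was 0.60 above untreated, but -0.05 when arrays were centred on all probes. Cysltr1, a receptor for cysteinyl leukotrienes, read 9.28, 9.21 and 9.06 with the combination, and the 9 other arrays lay between 7.97 and 8.61.

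Tbc1d13, a GTPase-activating protein for Rab proteins, read 10.90, 10.90 and 10.61 with the combination and 10.05, 10.12 and 10.28 untreated. Slc7a8, an amino acid exchanger, was at 10.62, 10.68 and 10.77 against 9.68, 9.82 and 10.15. Both stood above every array of KLA and of hBD3, and a second detected probe of Slc7a8 read 0.50 without a call. Pdlim4, an actin-associated protein, read 10.45, 10.52 and 10.55 against 10.07, 10.07 and 9.90, with KLA lower at 9.72, 9.45 and 9.44, and its second detected probe read 0.25 without a call. Pdlim4 was 0.50 above untreated, but -0.15 when arrays were centred on all probes, and was not called without combination replicate 2 (adjusted p = 0.059) or untreated replicate 3 (0.060). Leng9 was 0.91 above untreated and 0.47 above KLA. The remaining genes read among the rises were Ppm1n, Smad6, an inhibitor of BMP signalling, Dennd11 and Gsta3, a glutathione transferase, with differences from untreated of 0.33, 0.45, 0.39 and 0.47. Ppm1n was dim, at 6.33, 6.39 and 6.26 with the combination, and was detected in 1 untreated array and in no KLA or hBD3 array. With each of the 12 arrays left out in turn, Ppm1n kept all 3 calls in 8 fits, Gsta3 in 5, and Smad6 and Dennd11 in 4 each.

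Tlr2 is a known target of NF-kB, and its promoter is printed because it was the only one among the 6 named combination-only rises with a promoter in the table that held the kB letters (capitals, starting 173 bases before the start).
Tlr2, chr3:83841609-83841858, - strand: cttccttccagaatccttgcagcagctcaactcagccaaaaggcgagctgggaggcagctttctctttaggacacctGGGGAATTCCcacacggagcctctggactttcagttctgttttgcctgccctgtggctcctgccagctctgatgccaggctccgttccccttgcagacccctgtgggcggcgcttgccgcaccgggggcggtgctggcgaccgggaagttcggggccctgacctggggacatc

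The falls of this kind were led by Polr2g, a subunit of RNA polymerase II. It read 8.48, 8.32 and 8.49 with the combination and 9.43, 9.49 and 9.54 untreated, with KLA at 10.18, 9.40 and 10.32 and hBD3 at 9.28, 9.27 and 9.86. The combination differed from untreated by -1.06 and from KLA by -1.54, and its call against untreated was lost without combination replicate 1 or 2 or untreated replicate 3 (adjusted p up to 0.076). Alcam, an adhesion molecule, read 8.97, 8.87 and 8.86 against 9.70, 9.89 and 9.64. Its KLA arrays, 10.04, 9.57 and 9.70, lay around the untreated ones. Hsp90aa1, the inducible cytosolic HSP90, read 6.91, 6.82 and 6.88 against 7.39, 7.79 and 7.39, with KLA at 8.05, 7.71 and 7.79, on a single dim probe, and was not called without combination replicate 2 (0.058).

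Fabp5, a fatty acid binding protein, read 7.13, 6.71 and 7.12 against 7.61, 8.28 and 7.95 and P2ry1, a receptor for ADP, 7.17, 6.87 and 7.18 against 8.12, 7.72 and 8.08. Slc23a2, a vitamin C transporter, was at 7.06, 6.96 and 7.39 against 8.10, 8.03 and 7.96. In these genes KLA lay between the combination and the untreated mean. Ist1, of the ESCRT-III machinery, and Maco1 differed from untreated by -0.59 and -0.51, and the second detected probes of Ist1 and Slc23a2 read 0.03 and 0.12. The calls of both against untreated were lost without combination replicate 1 or 2 or untreated replicate 1 or 3 (adjusted p of 0.098 to 0.16 for Ist1 and 0.12 to 0.20 for Maco1), and that of Ist1 also without combination replicate 3 (0.090). The other falls read were Rora, Timm8a1, Plaa, Slc9a3r1 and Hdgf, at -0.56, -0.55, -0.48, -0.70 and -0.87. With each of the 12 arrays left out in turn, Timm8a1 kept all 3 calls in 1 fit, Plaa in 3, Rora in 7, Slc9a3r1 in 10 and Hdgf in 11. Among 9 heat shock genes read, 3 were lower with the combination (1 without combination replicate 2), Hsp90aa1, Hspe1 and Hspd1, the last pair being subunits of the mitochondrial chaperonin. Hspe1 fell by 0.93 (± 0.16, adjusted p = 0.0062) from 7.80, 8.03 and 8.0 to 6.92, 7.17 and 6.96, beside -0.58 with KLA. Hspd1 fell by 0.66 on 1 probe and read 0.32 on its second, and lost its call when any 1 untreated array or combination replicate 1 or 2 was left out (adjusted p up to 0.12).

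**Figure D4:**
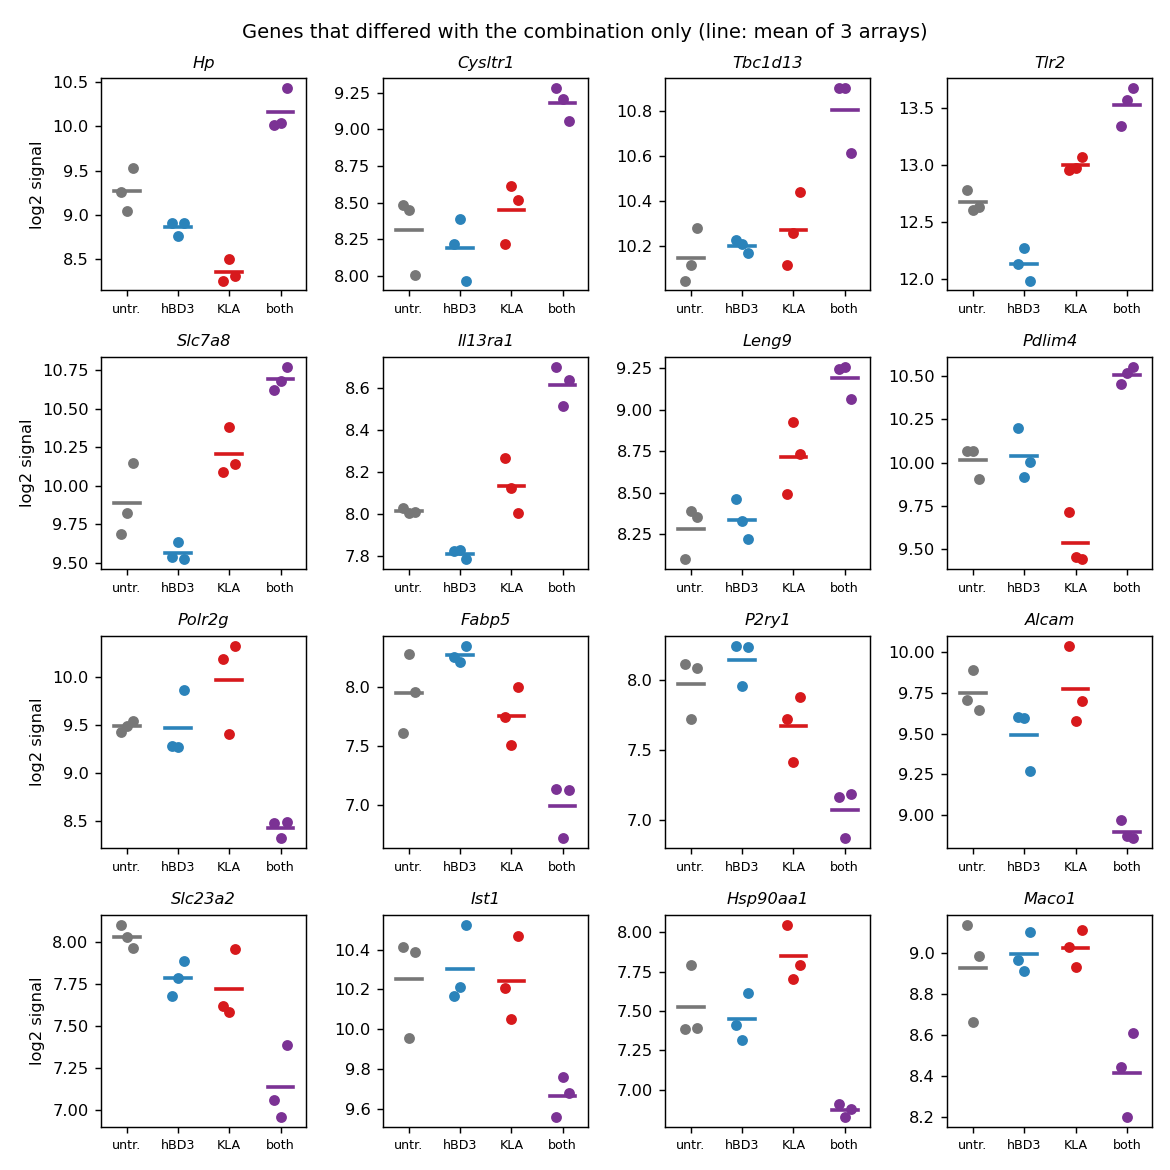
Log2 of quantile-normalized signal (y axes, scaled per gene) of the 8 named rises (upper 2 rows) and 8 named falls (lower 2 rows) with the combination only, in untreated, hBD3, KLA and KLA plus hBD3 (both) arrays, 1 point per array and a line at the mean. In each panel the combination arrays lie beyond all 9 other arrays, the gap being largest for Polr2g and Hp. The genes were chosen by calls against each of the other groups, so this separation goes with the choice and is a description.

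Some of these calls withstood the removal of an array. When each of the 12 arrays was left out in turn, Hp, Cysltr1, Tlr2, Il13ra1, Tbc1d13 and a probe that names no gene kept all 3 calls each time, and no fall did. Without combination replicate 1 or 2, 3 of the 18 falls remained. When only KLA replicate 1 stood for KLA, 6 of the 18 rises remained, Hp, Cysltr1, Tbc1d13, Pdlim4 and Leng9 among them, and 4 of the 18 falls, Polr2g, Alcam and Hsp90aa1 among them, but not Tlr2 or Il13ra1. Centring on the probes detected everywhere left 7 of the 18 rises and 14 of the 18 falls. It ended the status of Tlr2, Tbc1d13, Slc7a8, Leng9, Gsta3, Ppm1n and Smad6 among the rises and of Hsp90aa1, Plaa, Rora and Timm8a1 among the falls. Centring on all probes left none of the rises and 3 falls, Polr2g, Alcam and Hsp90aa1.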

How the data were processed

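RNA of 12 macrophage cultures in 4 groups of 3 was hybridized to Illumina MouseWG-6 version 2 arrays. The authors exported probe intensity from BeadStudio with a detection p-value per probe, and the deposited series matrix holds intensity after their quantile normalization in R. It was read as log2 signal, and the deposited raw intensity and detection p-value tables gave brightness and detection. Samples were grouped by treatment label. A group-means model was fitted in limma 3.58.1 (R 4.3.3) to 45281 probes and 12 arrays, with contrasts between groups and Benjamini-Hochberg adjustment over all probes, tested on simulated data. With 8 residual degrees of freedom, 3 arrays per group limit the precision. The series' platform annotation named 1 gene for 34885 probes, several for 18 and none for 10378; of 833 list entries in 39 lists, 93 had no probe. Named genes were the 12 largest rises and falls among genes read, with 8 closest to KLA and 8 combination-only genes in each direction. Also named were up to 4 genes per list with the smallest p against untreated, in either direction, and genes the study names. Fold changes against a group with no detected array are bounds at the detection limit. Members and lists were chosen with earlier results of these data known. Alternatives covered centring, background correction, an offset, detection, threshold, samples and a replicate block.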

Additional observations from a re-analysis of the deposited data

Results flagged for a closer look

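For 8 of the genes named for changing with the combination only, the change with KLA differed between cells with and without hBD3 in the interaction term of the limma model, over 3 arrays per group. These genes were chosen by related contrasts, so the values are a description. The change of Hp with KLA was -0.91 without hBD3 and 1.30 with it, a difference of 2.21 ± 0.19 (adjusted p = 0.00014). Tlr2 changed by 0.32 and 1.39, a difference of 1.07 ± 0.14 (adjusted p = 0.0015). The difference was 0.94 ± 0.14 for Pdlim4 (-0.48 and 0.47), 0.81 ± 0.16 for Slc7a8 and 0.69 ± 0.11 for Il13ra1. Polr2g went the other way, from 0.48 without to -1.04 with hBD3 (-1.53 ± 0.30, adjusted p = 0.016). Fabp5 (-1.08 ± 0.24) and Hsp90aa1 (-0.90 ± 0.18) also had a lower change with hBD3.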

How the results depend on the processing

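Against untreated cells 888 probes were called higher and 1098 lower, and 18 and 18 with the combination only. Centring each array on its median over all probes gave 323, 5857, 0 and 15, of which 137, 1095, 0 and 3 were among the original probes; 5.23% of the called probes were then higher, against 44.7%. Array medians of 49.7 to 64.4 lie near or below the raw detection limit of 58.5 to 79.4, so this centring sets arrays by background. Centring on the 10315 probes detected on all 12 arrays, chosen after seeing the data, gave 2143, 921, 14 and 21, with 69.9% higher. Restricting the fit to detected probes gave 28 and 28 combination-only probes. An adjusted p under 0.01 gave 381, 405, 6 and 0. When only KLA replicate 1 stood for KLA, 9 falls were combination-only. Leaving out 1 combination or untreated array in turn gave 441 to 804 higher and 447 to 973 lower. Leaving out any 1 of the 12 arrays gave 7 to 22 and 4 to 35 combination-only probes.

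Replicate numbers were not taken to pair the samples, since the deviations of same-numbered combination and untreated arrays correlated at 0.13, 0.088 and 0.044. Those of combination arrays with KLA and hBD3 arrays correlated at -0.066 to 0.28, but same-numbered arrays of the other 3 groups, which enter the same fit, at 0.27 to 0.71. With the replicate block 1318 probes were higher and 1747 lower, 34 and 67 changed with the combination only, and 6 histone genes were higher and 1 lower. A BeadChip block was not run, since the headings do not give the chip of an array.

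Of 142 named genes with a call, 103 to 132 kept it when 1 combination or untreated array was left out. Under centring on all probes 90 kept it, and under centring on detected probes 138. Directions reversed under centring on all probes for Il13ra1 (-0.046), Pdlim4 (-0.15), Fosl2 (-0.16), Gsdmd (-0.084), Pmvk (-0.025), Slc30a7 (-0.28), Slc39a13 (-0.079), Uqcrq (-0.066), Cycs (-0.14) and Rps6 (-0.075), and under centring on detected probes for Mcm7 (0.084) and Pcna (0.084).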
